A study of Arabidopsis thaliana with 10 samples.

Results

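AGAMOUS (AG), SHATTERPROOF1 (SHP1), SHATTERPROOF2 (SHP2) and SEEDSTICK (STK) form the AG clade of MADS-box transcription factors in Arabidopsis thaliana. All probes whose accession led to AT4G18960 (AG), AT3G58780 (SHP1), AT2G42830 (SHP2) or AT4G09960 (STK) were taken, each probe on its own, which gave 6 probes of 4 genes among the 43603 probes of the array. AG and SHP2 had 2 probes each, and SHP1 and STK had 1 each. All 6 were among the 37083 probes well above background on at least 1 array, which were the probes tested.

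Proteins of this clade act in flowers. AG specifies stamens and carpels and ends the growth of the floral meristem, SHP1 and SHP2 shape the margins along which the fruit opens, and STK, together with the others, gives ovules their identity. They work in complexes with SEPALLATA proteins, and in leaves and young seedlings their genes are kept silent by the Polycomb system, which marks the histones of its target genes.

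The RNA came from whole seedlings grown on agar with sucrose in short days and harvested at 15 or at 7 days. LFYasEMF1/ult1-3, called the double mutant here, carries both alterations of the other lines. LFYasEMF1 is known as a line with antisense RNA of EMF1, a Polycomb-associated protein, under the promoter of LEAFY (LFY). The transgene is thus driven where that promoter is active, and the RNA is that of the whole seedling. The ult1-3 line carries a mutant allele of ULT1, a trithorax group protein known to activate AG. The 10 arrays formed 8 groups, with 2 arrays for wild type (WT) at each age and a single array for any mutant at an age. By its title, the study asked whether ult1-3 restores what LFYasEMF1 alters. In whole seedlings, fewer cells that express a gene and less RNA per cell cannot be told apart.

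On each array 71.7% to 80.1% of spots were well above background, and no spot was saturated. The 2 WT arrays of an age differed by a median absolute log2 of 0.57 over all genes at 15 days and also at 7 days. By their scan barcodes, the arrays lay on 3 slides. Slide 1 held both LFYasEMF1 arrays and WT replicate 1 of both ages, and the double mutant, ult1-3 and WT replicate 2 shared slide 3 when 15 days old and slide 2 when 7 days old. The clock gene LHY lay between 15.6 and 207 on the 4 arrays of slide 1 and between 2560 and 9020 on the other 6 arrays, and the slides thus differ in clock transcripts. All 5 leaf markers and all 6 root markers were well above background on every array. Their summed signal in LFYasEMF1 was 459600 to 485500 (leaf) and 1348 to 2545 (root), against 310200 to 453300 and 1461 to 3179 in WT. In the double mutant the sums were 364200 to 516600 and 1058 to 2458. The part of slide or tissue makeup in the results below was not tested beyond the same-slide values given.

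Signals are given as scaled signals, in thousandths of each array's 75th percentile. Differences between probes of one gene show hybridisation as well as RNA, so no probe's level is set against another's. SHP1 and SHP2 are close paralogs, and whether their probes also take up each other's RNA was not tested.

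The altered genes were looked at first. ULT1, by its probe A_84_P825327, gave 17.7 at 15 days and 11.3 at 7 days in the double mutant, and 147 and 198 in ult1-3, against 634 and 892 at 15 days and 516 and 866 at 7 days in WT. Both lines with the allele lay below every WT array, and the double mutant lay lowest. ULT1 fell by 5.65 ± 0.36 on the log2 scale in the double mutant (limma, adjusted p = 0.000306), whereas in ult1-3 the change was −2.06 ± 0.36 and did not pass (adjusted p = 0.29). Set directly against ult1-3, the double mutant was lower by a change of −3.59 ± 0.42 (limma, adjusted p = 0.0135), although both carry the ult1-3 label. EMF1 gave 712 at 15 days and 304 at 7 days in LFYasEMF1, against 339 and 408 at 15 days and 119 and 286 at 7 days in WT. Its change of 0.83 ± 0.37 did not pass (limma, adjusted p = 0.454). Where the ULT1 probes lie relative to the lesion, and whether the EMF1 probe reads the antisense RNA, is not given in the sources used here. LFY was well above background on none of the mutant arrays.

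All 4 genes of the clade rose in LFYasEMF1 seedlings, by 19.3-fold to at least 114-fold. The comparison with WT asks what the antisense transgene changes. All 6 probes passed the limma test as higher, where 1.04% of all probes did. One model with terms for genotype and for age was fitted over the 10 arrays, so the samples of a mutant are its arrays of either age. No label says that the arrays came from separate cultures, so the p-values cover the spread among these arrays and no more. That spread holds the WT pairs, whose arrays lay on different slides, and any age change that differs between lines. It may also be technical.

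AG, by its probe A_84_P22327, gave 492 at 15 days and 958 at 7 days in LFYasEMF1, against 13.2 and 13.2 at 15 days and 9.51 and 8.90 at 7 days in WT. The LFYasEMF1 arrays lay far above the 4 WT arrays, which were well above background. The gene rose by 5.96 ± 0.52 on the log2 scale (SE, 2 arrays against 4), or 62.3-fold (limma, adjusted p = 0.001).

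The other AG probe, A_84_P826247, gave 982 at 15 days and 1470 at 7 days in LFYasEMF1, against 48.5 at 15 days and 55.5 and 31.8 at 7 days in WT. Its spot on WT replicate 1 at 15 days was marked as an outlier by the software and left out. With that spot kept it would have read 286, still below both LFYasEMF1 arrays. The probe rose by 4.70 ± 0.48, or 26.0-fold (2 arrays against 3; limma, adjusted p = 0.00407). The probes of AG thus gave the same direction and different sizes.

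SHP1 gave 428 at 15 days and 498 at 7 days in LFYasEMF1, against 49.8 and 18.6 at 15 days and 21.3 and 16.5 at 7 days in WT. The groups did not overlap. SHP1 rose by 4.27 ± 0.61, or 19.3-fold (limma, adjusted p = 0.0124), the smallest change of the 6 probes. Without the LFYasEMF1 array at 7 days it missed the threshold (adjusted p = 0.126), as it did with slide as a term (3.82, adjusted p = 0.0524).

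SHP2, by its probe A_84_P505692, gave 774 at 15 days and 754 at 7 days in LFYasEMF1, against 34.8 and 17.3 at 15 days and 16.6 and 20.9 at 7 days in WT. Its probe A_84_P784319 gave 570 and 529 in LFYasEMF1, against 25.1 and 11.5 at 15 days and 11.9 and 19.1 at 7 days in WT. LFYasEMF1 lay above all WT arrays by both probes. SHP2 rose by 5.16 ± 0.49 and 5.10 ± 0.50, or 35.8-fold and 34.3-fold (limma, adjusted p = 0.0016 and 0.00185).

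STK gave 382 at 15 days and 416 at 7 days in LFYasEMF1, against 2.97 and 1.07 at 15 days and 4.58 and 1.43 at 7 days in WT. No WT array was well above background, so WT has only a bound, and STK rose at least 114-fold (limma, adjusted p = 0.00185). For "at least" values, the dim group was set at each array's lowest signal well above background, or at the probe's own signal where that was higher. The adjusted p given with such a value comes from the fit of the signals as read.

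**Figure D1:**
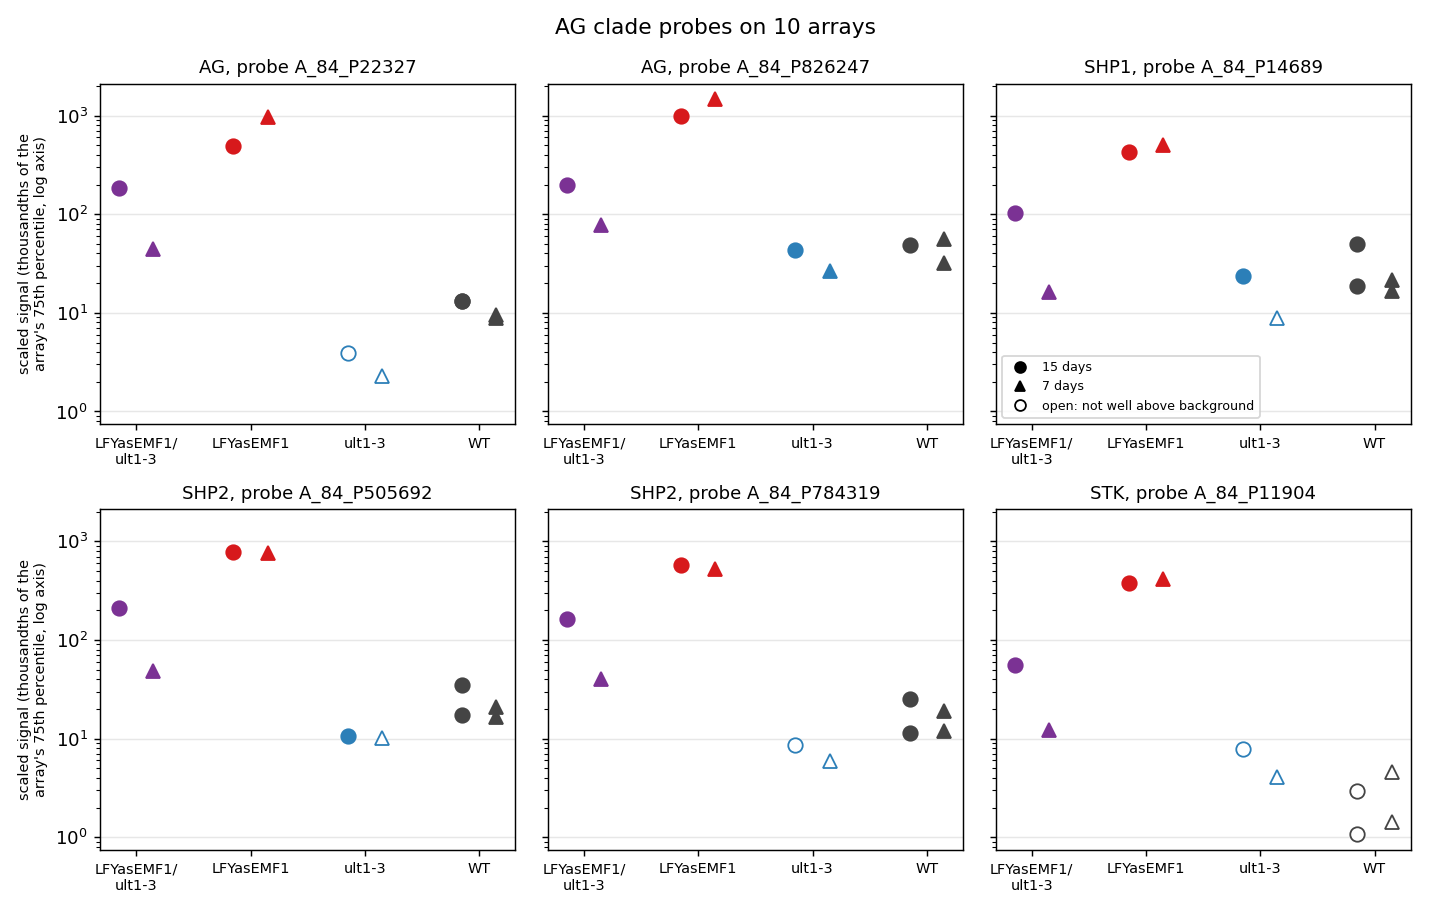
Scaled signal of each AG clade probe (log axis, thousandths of the array's 75th percentile) on each array, by genotype, with circles for 15 days, triangles for 7 days and open symbols for spots not well above background; the outlier spot of AG probe A_84_P826247 is left out. LFYasEMF1 lies highest in every panel, and the double mutant at 15 days lies between it and WT.

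The same arrays were also compared within slide 1, where each LFYasEMF1 array has a WT array of its age. The difference was positive in all 11 values, 1 per probe and age, from 3.10 to 7.01 on the log2 scale. The share of all probes positive within slide 1 was not counted. The 11 values had a median of 5.22, and STK, whose WT signal was at background, was the highest. These values come from 1 pair of arrays per age, so the probes are not separate pairs. Of the 5 probes measured on every array, all had both LFYasEMF1 arrays above all 4 WT arrays, where 8.37% of probes did. When every genotype and age had its own mean (8 group means), only the WT pairs informed the spread, and 1 of 6 probes passed at 15 days and 1 of 6 at 7 days, where 0.287% and 0.273% of all probes passed.

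In ult1-3 none of the 6 probes passed against WT, a comparison that asks what the allele does alone and in which 0.0593% of all probes passed. AG, by probe A_84_P22327, gave 3.90 at 15 days and 2.27 at 7 days in ult1-3, neither well above background, against the WT values of 8.90 to 13.2. The ult1-3 arrays read under the lowest of the WT arrays, and the signal was at least 1.82-fold lower over both ages, with a fitted change of −1.89 ± 0.52 (limma, adjusted p = 0.932). At 7 days the lowest signal well above background on the ult1-3 array was 9.37, beside 9.51 and 8.90 in WT. A drop is thus bounded only at 15 days, by 1 ult1-3 array. Over the alternative settings listed at the end, the fitted change ran from −2.24 to −0.07. The other AG probe gave 43.7 at 15 days and 26.8 at 7 days in ult1-3, against 31.8 to 55.5 in WT, and there the groups overlapped (−0.43 ± 0.48). The AG probes therefore differ on whether the ult1-3 arrays stand apart.

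SHP1 gave 23.8 at 15 days and 8.93 at 7 days in ult1-3, of which the value at 7 days was not well above background. SHP2 gave 10.5 and 10.2 by probe A_84_P505692, the value at 7 days not well above background, and 8.61 and 5.97 by its other probe, not well above background at either age. STK gave 7.81 and 4.04, not well above background in either line. The fitted changes against WT were −0.71 for SHP1 and −1.04 for SHP2 by A_84_P505692, with 1 of the 2 ult1-3 arrays above background for each. By A_84_P784319 SHP2 was at least 1.78-fold lower in ult1-3 (limma, adjusted p = 0.959 for each). For 3 of the 5 probes measured on every array neither ult1-3 array reached the lowest WT array, where 3.89% of probes did. Within slides 2 and 3, with 1 pair of arrays per age, 9 of the 12 probe and age differences from WT were negative and 3 positive. Among them are those of spots at background, and the share of all probes with each sign was not counted.

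On its single array at 15 days, the double mutant read above WT of that age for all 6 probes, by 1.75 to 4.95 on the log2 scale. On its single array at 7 days the changes ran from −0.20 for SHP1 to 2.27. Over both ages, 1 of 6 probes passed against WT as higher, where 0.351% of all probes did. AG, by probe A_84_P22327, gave 186 at 15 days and 44.4 at 7 days in the double mutant, above every WT array (8.90 to 13.2). It rose by 3.04 ± 0.52, or 8.24-fold (limma, adjusted p = 0.0496). That call lay at the threshold: it was lost when slide entered the model (adjusted p = 0.0532) and without any 1 of 7 arrays, among them all 4 WT arrays (adjusted p up to 0.148). The other AG probe gave 200 and 76.9 and a change of 1.42 ± 0.48 (limma, adjusted p = 0.25).

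SHP1 gave 102 at 15 days and 16.3 at 7 days in the double mutant, against 16.5 to 49.8 in WT, so at 7 days it lay just under the lowest WT array (0.78 ± 0.61; limma, adjusted p = 0.559). SHP2 gave 210 and 48.7 by probe A_84_P505692, against 16.6 to 34.8 in WT, and 162 and 40.4 by the other, against 11.5 to 25.1. The changes of SHP2 were 2.24 ± 0.49 and 2.34 ± 0.50 (limma, adjusted p = 0.115 and 0.108). STK gave 55.1 and 12.2, well above background at both ages, against 1.07 to 4.58 in WT, at least 7.43-fold higher (limma, adjusted p = 0.0933). With slide as a term STK passed (4.38, adjusted p = 0.0388). Of the 5 probes measured on every array, 4 had both double mutant arrays above all WT arrays, where 8.87% of probes did. On the same slides, the difference from WT ran from 2.05 to 5.68 at 15 days (median 3.70) and from −0.01 to 3.09 at 7 days (median 1.25), highest at both ages for STK, whose WT signal was at background.

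Against ult1-3, which lay on the same slides, AG rose in the double mutant by 1 of its probes. By A_84_P22327 the values of 186 and 44.4 stood against 3.90 and 2.27 in ult1-3, at least 15.0-fold higher. Fitted on the signals as read, the probe passed (limma, adjusted p = 0.0165). It was 1 of 6 probes to do so, where 0.135% of all probes passed as higher. With a floor under dim signals its change of 3.91 did not pass (limma, adjusted p = 0.129). By the other AG probe the double mutant gave 200 and 76.9, against 43.7 and 26.8 in ult1-3, and the change of 1.86 ± 0.52 did not pass (limma, adjusted p = 0.61). The call of A_84_P22327 was lost without the ult1-3 array at 7 or at 15 days (adjusted p = 0.166 and 0.145) and when the 15-day array of the double mutant was left out (adjusted p = 0.0738). SHP2 was 9.73-fold and at least 9.0-fold higher by its probes without passing (limma, adjusted p = 0.0906 and 0.0735). On the same slide and at the same age the double mutant was higher for all 6 probes at both ages. The share of all probes higher in both of these pairs was not counted. These values come from 1 pair of arrays per age, so the probes are not separate pairs. For 5 of 6 probes both double mutant arrays lay above both ult1-3 arrays, where 10.6% of probes did.

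**Figure D2:**
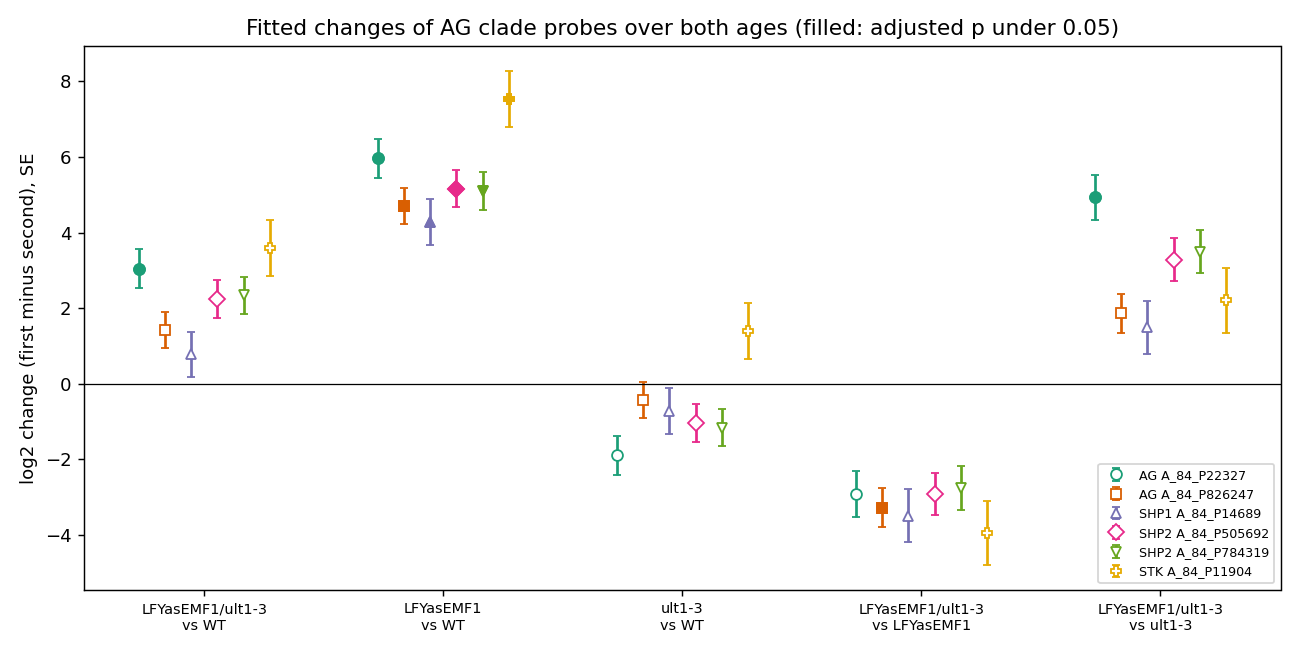
Fitted log2 change with SE of each AG clade probe in 5 comparisons over both ages, with filled symbols for a limma adjusted p under 0.05. All 6 probes are filled for LFYasEMF1 against WT, none for ult1-3 against WT and 1 in each of the other comparisons; STK in WT and ult1-3, and AG A_84_P22327 and SHP2 A_84_P784319 in ult1-3, were at background, so changes against those are not exact sizes.

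Set against LFYasEMF1, the double mutant had lower signals for every clade probe at both ages, the comparison that asks how the allele alters seedlings that carry the transgene. Both double mutant arrays lay below both LFYasEMF1 arrays for 6 of 6 probes, where 22.1% of probes did. As a percentage of LFYasEMF1 at the same age, the double mutant had 37.7% and 20.4% for the AG probes, 23.9% for SHP1, 27.1% and 28.4% for SHP2 and 14.4% for STK at 15 days. At 7 days it had 4.63% and 5.21% for AG, 3.28% for SHP1, 6.46% and 7.63% for SHP2 and 2.92% for STK. These percentages set arrays of different slides against each other, so they give no order of the genes.

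The fitted changes ran from −3.95 ± 0.85 for STK to −2.76 ± 0.58 for SHP2 by probe A_84_P784319. The AG probe A_84_P826247 fell by 3.28 ± 0.52, or 9.70-fold (limma, adjusted p = 0.048), and it was the 1 of 6 probes that passed, where 0.597% of all probes passed as lower. The other 5 had adjusted p from 0.0662 to 0.0839. These lines share no slide, and with slide as a term no clade probe passed (adjusted p = 0.0993 for A_84_P826247). The call was also lost without any 1 of the 9 arrays on which this probe was measured. When each line was set against WT of its own slide first, the double mutant stood lower in all 11 values, 1 per probe and age from single arrays. The share of all probes lower by this measure was not counted. The differences ran from −4.56 to −3.42 at 7 days and from −1.41 to −0.64 at 15 days. Those of STK rest on WT signals at background. At 15 days the same difference without that step ran from −2.79 to −1.41, so the slide reference changes its size there.

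The effect of the transgene in ult1-3 was set against its effect in the ULT1 background, and none of the 6 probes passed as a difference of effects, where 0.211% of all probes did (limma, adjusted p from 0.248 to 0.999). The double mutant also had less ULT1 signal than ult1-3 (−3.59 ± 0.42), so a transgene effect and another difference between these lines cannot be told apart. The AG probe A_84_P826247, above background in every line, gave a fitted difference of −2.84 ± 0.70 over both ages. For STK, AG by A_84_P22327 and SHP2 by A_84_P784319 ult1-3 was at background, so no size is given. Within slides, the difference of effects was −1.0 at 15 days and −3.68 at 7 days for SHP1, and −0.16 and −3.26 for SHP2 by A_84_P505692, in both with the 7-day ult1-3 spot at background. For A_84_P22327, with ult1-3 at background at both ages, no sign is read either. For SHP1 and SHP2 by A_84_P505692 the difference was nearer 0 at 15 days than at 7 days, where it rests on those background spots. The AG probe A_84_P826247, with all its 7-day spots well above background, gave −3.21 within slides at 7 days. At 15 days it has no such value, as its WT spot on slide 1 was left out.

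**Figure D3:**
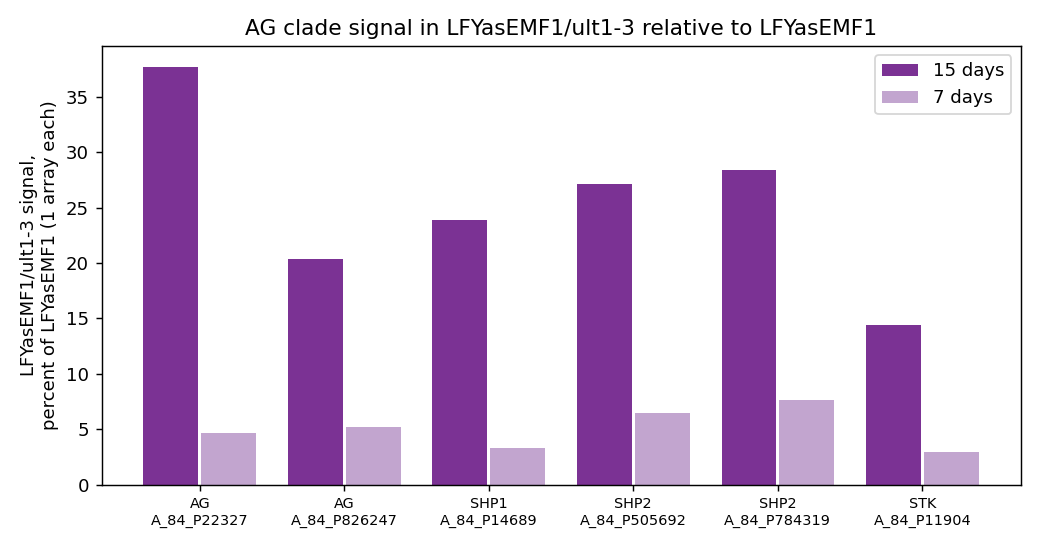
Scaled signal in LFYasEMF1/ult1-3 as a percentage of LFYasEMF1 for each AG clade probe, with dark bars for 15 days and light bars for 7 days, from 1 array of each line and age on different slides. The bars stand between 14.4% and 37.7% at 15 days and between 2.92% and 7.63% at 7 days.

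In the double mutant, with only 1 array per age, all 6 probes read higher at 15 than at 7 days. The difference was 1.38 to 2.65 on the log2 scale, or 2.60-fold to 6.28-fold. Of all genes, 15.7% were more than 2-fold higher at 15 days in that line, 7.75% in LFYasEMF1 and 7.31% in ult1-3. In LFYasEMF1 the clade changed by −0.96 to 0.11, with AG lower at 15 days by both probes. In ult1-3 the values were 0.04 to 1.41 and in WT −0.52 to 0.70. In WT, where each age has 2 arrays, no clade probe and 0% of all probes passed (limma; 1063 probes had an unadjusted p under 0.05). The difference between the double mutant and LFYasEMF1 in this step did not pass for any clade probe (limma, adjusted p = 1), with 1 array per line and age, and in the double mutant age and slide cannot be told apart.

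Over the 8 groups, the LFYasEMF1 groups were highest for every probe, and the double mutant at 15 days came next. For STK the LFYasEMF1 ages differed by 0.12 on the log2 scale and for SHP2 by 0.04 and 0.11, less than the widest gap of a WT pair. Below these, neighbouring groups of SHP1 and STK lay within the gap of the WT pairs, while AG by probe A_84_P22327, whose WT pairs differed by at most 0.10, had wider steps, although its ult1-3 values were at background. Over the 10 arrays the 15 pairs of probes had Pearson's r from 0.885 to 0.997 with a median of 0.949, and within the 6 arrays of ult1-3 and WT from −0.599 to 0.957. These points share their arrays and slides, and the LFYasEMF1 arrays are the highest points for all probes.

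The genes most like each member were found by Pearson's r over the 10 arrays among 20857 genes well above background on at least 3 arrays. For AG (A_84_P22327) they were SHP2 (0.982), SEP3 (0.970), AT5G60140 (0.965), BGLU43 (0.964), AT4G15970 (0.960), CAL (0.954), AT5G38100 (0.950) and AT3G45180 (0.949). SEP3 and CAL encode MADS-box proteins of the flower. For SHP2 they were SEP3 (0.983), AG (0.982) and BGLU43 (0.968). For SHP1 they were PGLP2 (0.980), AT2G03550 (0.973) and AT4G15955 (0.961), whose own changes in LFYasEMF1 were 0.43 to 0.85 on the log2 scale. For STK they were AGL71 (0.977), a MADS-box gene, AT3G49770 (0.953) and MIF2 (0.950). In the double mutant AGL71 and AT3G49770 rose by 3.66 and 3.89 (limma, adjusted p = 0.00993 and 0.000907), where 0.325% of genes passed as higher. MIF2, with 2.17, did not pass there (limma, adjusted p = 0.0854). No gene outside the clade among those listed for AG, SHP1 and SHP2 passed there either. All were picked by likeness over these same arrays, so a rise in the double mutant follows in part from the choice.

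The partners of the clade rose with it. Of 8 MADS-box partners, 6 rose in LFYasEMF1, with a median fitted log2 change of 6.57 over the 8, some of them at background in WT, against 0.00 over all genes, of which 0.944% passed as higher. SEP1, a cofactor in every floral organ, gave 1960 at 15 days and 889 at 7 days in LFYasEMF1, against 1.19 to 12.2 in WT, where 2 of 4 arrays were above background (limma, adjusted p = 0.00309). SEP2, which acts likewise, gave 1940 and 828 in LFYasEMF1, against 1.27 to 6.0 in WT, where 1 of 4 arrays was above background (limma, adjusted p = 7.52e-05). SEP3 gave 4860 at 15 days and 6460 at 7 days in LFYasEMF1, against 166 to 442 in WT. AP3, which acts with PI in petal and stamen identity, rose at least 227-fold and PI 34.6-fold, and AP1, which specifies sepals and flower fate, rose at least 151-fold. In the double mutant SEP1, SEP2, AP3, PI and AP1 passed, 5 of 8 with a median of 3.97, where 0.325% of genes passed as higher, and SEP3 gave 1430 at 15 days and 370 at 7 days (1.41 ± 0.57; limma, adjusted p = 0.299).

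Of 7 tested genes known as targets of AG, 1 rose in LFYasEMF1, where 0.944% of genes passed as higher, and none in the double mutant, where 0.325% did. It was SUP, which bounds the stamen whorl, at 11.2 and 12.9 in LFYasEMF1 against 1.37 to 1.81 in WT, at least 3.86-fold higher (limma, adjusted p = 0.00217). SUP was at background in the double mutant and lower there than in LFYasEMF1, at least 1.53-fold (limma, adjusted p = 0.0215; 0.543% of genes passed as lower in that comparison). The targets KNU and DAD1 were not well above background on any array. None of 10 genes of the carpel and valve margin and none of 4 ovule and seed coat genes passed in LFYasEMF1, with medians of 0.48 and 0.68. INO, VDD, BAN and TT2 of the ovule list and MS1, AMS, TDF1, DYT1 and MYB80 of the 7 stamen and tapetum genes were not well above background on any array, and the 1 stamen gene tested did not pass.

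Among genes known to act upstream of AG, none passed in LFYasEMF1 of 11 activators (median −0.24), 5 genes of AG transcript processing (−0.12), 8 repressors outside the Polycomb group (−0.08) and 12 Polycomb group genes (−0.08). In the double mutant ULT1 was the 1 of these genes that passed, where 0.445% of genes passed as lower, and the medians were −0.28, −0.18, −0.37 and −0.27. In ult1-3 no gene of any list passed (limma; 0.0623% of genes passed and 893 had an unadjusted p under 0.05), and the medians of the clade and its partners were −0.88 and 0.02. Neither the 5 leaf nor the 6 root markers passed in any of these comparisons with WT.

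**Figure D4:**
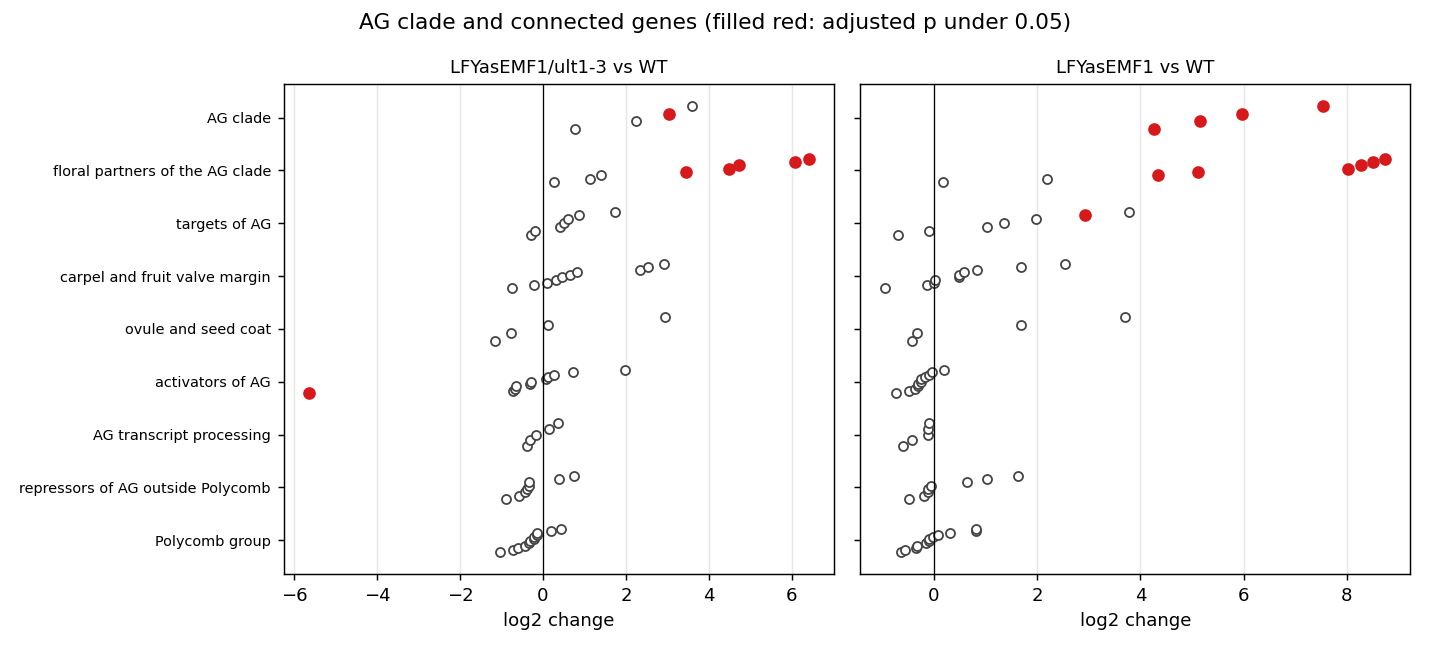
Fitted log2 change against WT of the tested genes of the AG clade and of 8 connected lists, 1 point per gene, for the double mutant (left) and LFYasEMF1 (right), filled red for a limma adjusted p under 0.05. In LFYasEMF1 the filled points are the 4 clade genes, 6 partners and SUP, and in the double mutant they are AG, 5 partners and, to the far left, ULT1.

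Genes beside the members on the chromosome were examined. Of the 40 nearest annotated genes, 5 on either side of each member in the order of assembly TAIR10.1, 30 were tested. Of these, 2 rose in LFYasEMF1, where 0.944% of all genes passed as higher, and none passed in the double mutant, where 0.325% passed as higher and 0.445% as lower. AT4G09965, next to STK, rose by 2.86 ± 0.36 (limma, adjusted p = 0.0064). XTH29, the fifth gene from AG and by name a xyloglucan-modifying enzyme of the cell wall, rose by 4.59 ± 0.76 (limma, adjusted p = 0.0266).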

How the data were processed

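RNA of whole seedlings was hybridised to 10 1-colour Agilent arrays. Agilent Feature Extraction 10.7.1.1 is named in the submitters' processing notes. The deposited processed signal is a linear intensity from which background was subtracted, not normalized across arrays, per the file headers. The authors' deposited value table is also an intensity. Its columns rank as the arrays do, with medians from 966.71 to 970.13, and its between-array step is not stated; it served as an alternative.

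Control spots and spots marked as outliers were left out, and spots of a probe were averaged. Signals were divided by the array's 75th percentile (3758 to 6047) and put on a log2 scale. Probes well above background, by the software's flag, on at least 1 array entered the test, run in R 4.3.3 with limma 3.58.1 and Benjamini-Hochberg adjustment over all of them at 0.05. The genotype and age fit had 5 residual degrees of freedom, and the fits of the 8 group means and of the WT ages had 2 each. A probe with a left-out spot was fitted on its other arrays. The fits were tested on simulated data with independent noise and no slide or age effect. That test does not cover how slide and age act in these arrays. The number of arrays limits precision.

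Accessions gave a locus for 34358 probes, named from a table of assembly TAIR10.1. For gene lists, a gene stood by its probe of highest mean among those measured on every array, or among all its probes where none was; so AG stood by A_84_P22327. The plan was the highest mean alone, and the condition on every array was added once the outlier spot of A_84_P826247 was seen; by that probe AG does not pass in the double mutant against WT or ult1-3. This left 22477 genes. Of 97 entries in 12 lists, 2 fell out as their symbol was no name of their locus, 81 were tested and 14 were not well above background. Named were all member probes, list genes that passed, EMF1, ULT1 and LFY, the 8 genes most like AG and 3 each for the others, and neighbours that passed. List genes at background, SEP3 in the double mutant and LHY were named after their values were seen. The members and lists were chosen with earlier results of these data known. Alternatives covered normalization, background, filters, a floor, probe choice, variance model, slide, group means, the replicate number as a block and each array left out.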

Additional observations from a re-analysis of the deposited data

Results flagged for a closer look

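Between 7 and 15 days 4 probes of the clade had a positive difference in the double mutant and a negative one in LFYasEMF1. As 15 minus 7 days on the log2 scale, AG gave 2.06 in the double mutant and −0.96 in LFYasEMF1 by probe A_84_P22327, and 1.38 and −0.59 by A_84_P826247. SHP1 gave 2.65 in the double mutant and −0.22 in LFYasEMF1, and STK gave 2.18 and −0.12. What singled them out is the opposite sign, with 1 array per line and age. The share of all probes with such opposite signs was not counted, so these 4 are not read as unusual. When the difference was tested in the limma fit of the 8 group means it was 1.90 to 3.03 over the 6 probes and passed for none (adjusted p = 1). That fit called 0 of 36892 probes for this difference, with 2 residual degrees of freedom. The changes of SHP1 and STK in LFYasEMF1 are smaller than the 0.57 by which WT arrays of an age differed in the median gene. In the double mutant the 7-day array lay on slide 2 and the 15-day array on slide 3, so age and slide cannot be told apart there, while both LFYasEMF1 ages lay on slide 1.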

How the results depend on the processing

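For LFYasEMF1 against WT over both ages, 4 to 6 probes passed in every setting (1 of 6 at a single age with 8 group means), and every probe stayed higher. For ult1-3 against WT and for the WT ages 0 passed in every setting. The single calls of the double mutant were fragile. The setting of 1 probe per gene is no test of the call against LFYasEMF1, as its probe A_84_P826247 is not in that set. Against WT, 1 probe became 0 with normexp, a floor, same-slide fits, 8 group means or outlier spots kept (an alternative chosen after seeing the data), and 0 to 1 without 1 array. Against LFYasEMF1, 1 became 0 with the authors' table, 1 probe per gene, a slide term, 8 group means or outlier spots kept, 2 with normexp, and 0 to 3 without 1 array (3 without the double mutant array at 15 days). Against ult1-3, 1 became 3 with quantile normalization or the authors' table, 0 with normexp or a floor, and 0 to 2 without 1 array. For the difference of transgene effects, 0 became 1 (STK) with normexp. Signs reversed for SHP2 A_84_P784319 in ult1-3 with normexp (0.05), for SHP1 in the double mutant (−0.22 to 1.77 without 1 array, lowest without its array at 15 days), and for the WT ages without 1 WT array: SHP1 −0.01 to 1.41, SHP2 −0.11 to 0.90 and −0.39 to 0.73 (−0.17 without WT replicate 1 at 7 days), STK −1.36 to 0.32 (0.21 without WT replicate 2 at 15 days). STK also reversed as an age term over 10 arrays (0.39). The causes were not tested. The replicate number as a block left 0 clade probes in the WT ages while 255 probes passed in all; deviations of replicate 1 at both ages correlated at 0.316, but 2 pairs and the labels do not establish pairing. Mean spot signals are not in the tables used here, so normexp ran on median signals with an offset of 50. STK in WT and ult1-3, and AG by A_84_P22327 and SHP2 by A_84_P784319 in ult1-3, have only bounds, set by background.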
